A study of Homo sapiens with 12 samples.

Results

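The nuclear genes of respiratory complexes II, III, IV and V and of cytochrome c were followed in clear cell renal cell carcinoma (ccRCC) cells selected for growth in sunitinib. The 42 genes were chosen by symbol as the nuclear subunits of these complexes, out of 45478 genes in the count table. They were 4 genes of complex II, 9 of complex III, CYCS for cytochrome c, 11 of complex IV, the tissue isoforms COX4I2 and COX7A1 of complex IV, and 15 of complex V, of which 5 belong to the F1 head and 10 to the membrane part Fo and the stalk. The study compared the human ccRCC lines 786-O and A498 with sunitinib-resistant 786-O cells, selected at 4 μM sunitinib, and sunitinib-resistant A498 cells, selected at 2 μM, over 4 months or more than 20 passages. Sunitinib is an inhibitor of receptor tyrosine kinases. Each resistant line was 1 named culture, the labels gave the treatment of every library as none, their titles carried the letters veh without saying what these mean, and whether sunitinib was in the medium at harvest was not stated. All 4 groups were cultured in high-glucose medium with serum, and both lines are known to lack functional VHL. Each group held 3 mRNA libraries that were not stated to be separate cultures, so that p-values measure the spread between these libraries alone.

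Complex II (succinate dehydrogenase) oxidises succinate to fumarate in the citric acid cycle and passes the electrons to ubiquinone. Complex III transfers them to cytochrome c, complex IV (cytochrome c oxidase) from there to oxygen, and both build the proton gradient that drives complex V, the ATP synthase. Complex II is encoded by nuclear genes throughout, whereas complexes III, IV and V also hold subunits encoded by mitochondrial DNA (mtDNA). Many nuclear genes of respiration carry sites for the factors NRF1, GABP (an ETS factor) and ERRα near their start, and PGC-1α, the product of PPARGC1A, acts as a coactivator of such factors. ccRCC is known for glycolytic metabolism, and loss of complex II defines a separate, rare kidney cancer.

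Total counts were 20042519 to 47972092 per library. Levels are given as CPM, counts scaled to TMM-normalized library size, and comparisons come from edgeR's quasi-likelihood test over 19929 genes with an adjusted p threshold of 0.05. Among the members, 40 of 42 passed the filter on low counts, with group means of 9.34 to 969 CPM, and the coefficient of variation of a member over 3 libraries had a median of 6.12% in resistant 786-O, 3.43% in resistant A498, 3.01% in parental A498 and 2.38% in parental 786-O. The labels put every group in a separate batch, and batch and group cannot be told apart. The libraries labelled resistant A498 went against their label, and are called here by that label. Across 19929 genes their median Pearson r of log2(CPM + 1) was 0.989 with resistant 786-O and 0.967 with parental 786-O but 0.918 with parental A498. The median level of 62 genes present in parental A498 and nearly absent from parental 786-O was 0.362% of the parental A498 level in resistant A498. For this reason resistant A498 is set beside both parental A498 and parental 786-O, and in the comparison with parental A498 the effect of selection and a difference between cell lines cannot be told apart. The renal and epithelial markers PAX8, PAX2, KRT8 and KRT18 and the mesenchymal VIM were at no less than 14.2 CPM in all 12 libraries, while CA9, a ccRCC marker, was at 1.07 to 1.56 CPM in parental A498 and at no more than 0.0526 elsewhere. The summed level of 8 T cell and leukocyte markers was 0 to 0.0869 CPM in parental A498, 0.335 to 0.391 in resistant A498, 0.129 to 0.222 in parental 786-O and 0.612 to 0.664 in resistant 786-O. CD3D, CD3E, CD3G and CD2, which define T cells, had at most 1 count in any library. CD8A, of the same list, had 0 counts in parental A498, 7 to 9 per library in resistant A498, 4 to 6 in parental 786-O and 20 to 26 in resistant 786-O. It was called higher in each resistant group than in its parental line. LCK had at most 6 counts per library.

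Start regions of 31 members were found in the RefSeq promoter table (GRCh38.p14), which gives 250 bases before and 50 after each start, with 36 promoters in all. The NRF1 motif GCGCANGCG, searched on both strands, was in 33.3% of these and in 7.52% of all 35116 promoters. The ETS motif CCGGAAG was in 44.4% against 10.3%, and the ERR motif AAGGTCA in 16.7% against 3.92%, and the 3 motifs were counted separately where they overlapped. ERR matches were in 0 of the 7 promoters of complex III and NRF1 matches in 1 of the 10 of complex IV. Stretches before the start that lie outside annotated exons are printed for 6 genes as examples of such matches from each complex. Each is printed 5′ to 3′ on the strand of the gene, with matches in capitals, and a match on the other strand therefore appears as its reverse complement. SDHA (chr5:218154-218285, plus strand) held 3 NRF1 matches in a repeated block, at positions -166, -117 and -68 from the start. SDHB (chr1:17054129-17054281, minus strand) held an ERR match at -224 and an ETS match at -128. UQCR11 (chr19:1605474-1605604, minus strand) held ETS matches at -117 and -97 and an NRF1 match at -28. COX6A1 (chr12:120437869-120437927, plus strand) held an NRF1 match at -219, COX8A (chr11:63974577-63974619, plus strand) an ETS match at -18, and ATP5PD (chr17:75047039-75047095, minus strand) an ETS match at -101.
SDHA: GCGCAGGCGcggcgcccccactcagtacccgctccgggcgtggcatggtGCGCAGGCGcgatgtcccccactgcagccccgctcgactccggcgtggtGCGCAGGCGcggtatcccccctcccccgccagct
SDHB: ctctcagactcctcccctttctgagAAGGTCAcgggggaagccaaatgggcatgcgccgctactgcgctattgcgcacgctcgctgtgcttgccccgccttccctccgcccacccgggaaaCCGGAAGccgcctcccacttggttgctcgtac
UQCR11: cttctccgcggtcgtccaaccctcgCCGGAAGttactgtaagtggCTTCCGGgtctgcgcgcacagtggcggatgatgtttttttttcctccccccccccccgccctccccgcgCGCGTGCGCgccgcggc
COX6A1: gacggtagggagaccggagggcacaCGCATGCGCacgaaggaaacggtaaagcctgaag
COX8A: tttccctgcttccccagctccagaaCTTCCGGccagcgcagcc
ATP5PD: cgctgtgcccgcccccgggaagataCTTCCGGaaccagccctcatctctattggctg

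In resistant 786-O the nuclear subunits were mostly lower than in parental 786-O, with complex V and complex II lower almost throughout, whereas in resistant A498 more were higher than lower against parental A498. In resistant 786-O 27 of the 40 members tested were lower and 4 higher than in parental 786-O, where 33.5% and 35.0% of all genes tested were called lower and higher. The median log2 fold change of the members was -0.30 (range -1.08 to 0.30), against 0.03 over all genes. In resistant A498 21 members were higher and 9 lower than in parental A498, against 36.3% and 36.4% of all genes, with a member median of 0.18 (range -0.76 to 1.13) and 0.00 over all genes. With the trend of each library with gene length and GC content removed, 17 were higher and 11 lower in resistant A498, with a median of 0.03. That setting put the median of all genes at -0.10 in resistant against parental A498. In each comparison 10 members moved by more than 0.5 on the log2 scale and 1 by more than 1. The shares of all genes beyond these limits were not counted. Scaling by library size alone moved the median of all genes in resistant against parental 786-O by 0.15, to 0.18, and that of the members to -0.15, with 21 members lower and 7 higher. With the length and GC trend removed, 26 were lower and 9 higher.

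Against parental 786-O, the line which the resistant A498 libraries resemble more, resistant A498 had 11 members higher and 19 lower, where 31.6% and 32.1% of all genes were called. The member median was -0.10 and that of all genes 0.00. This split turned under library size alone, with 17 higher and 12 lower and a median of 0.05, where the median of all genes was 0.15. Between the parental lines 28 members were higher and 7 lower in parental 786-O than in parental A498, against 38.2% and 36.1% of all genes, with a member median of 0.39 (0.04 over all genes). With the length and GC trend removed these were 22 and 11, and the median of all genes was -0.06. The comparisons share the parental 786-O or the parental A498 libraries, and their values are therefore only set side by side.

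**Figure D1:**
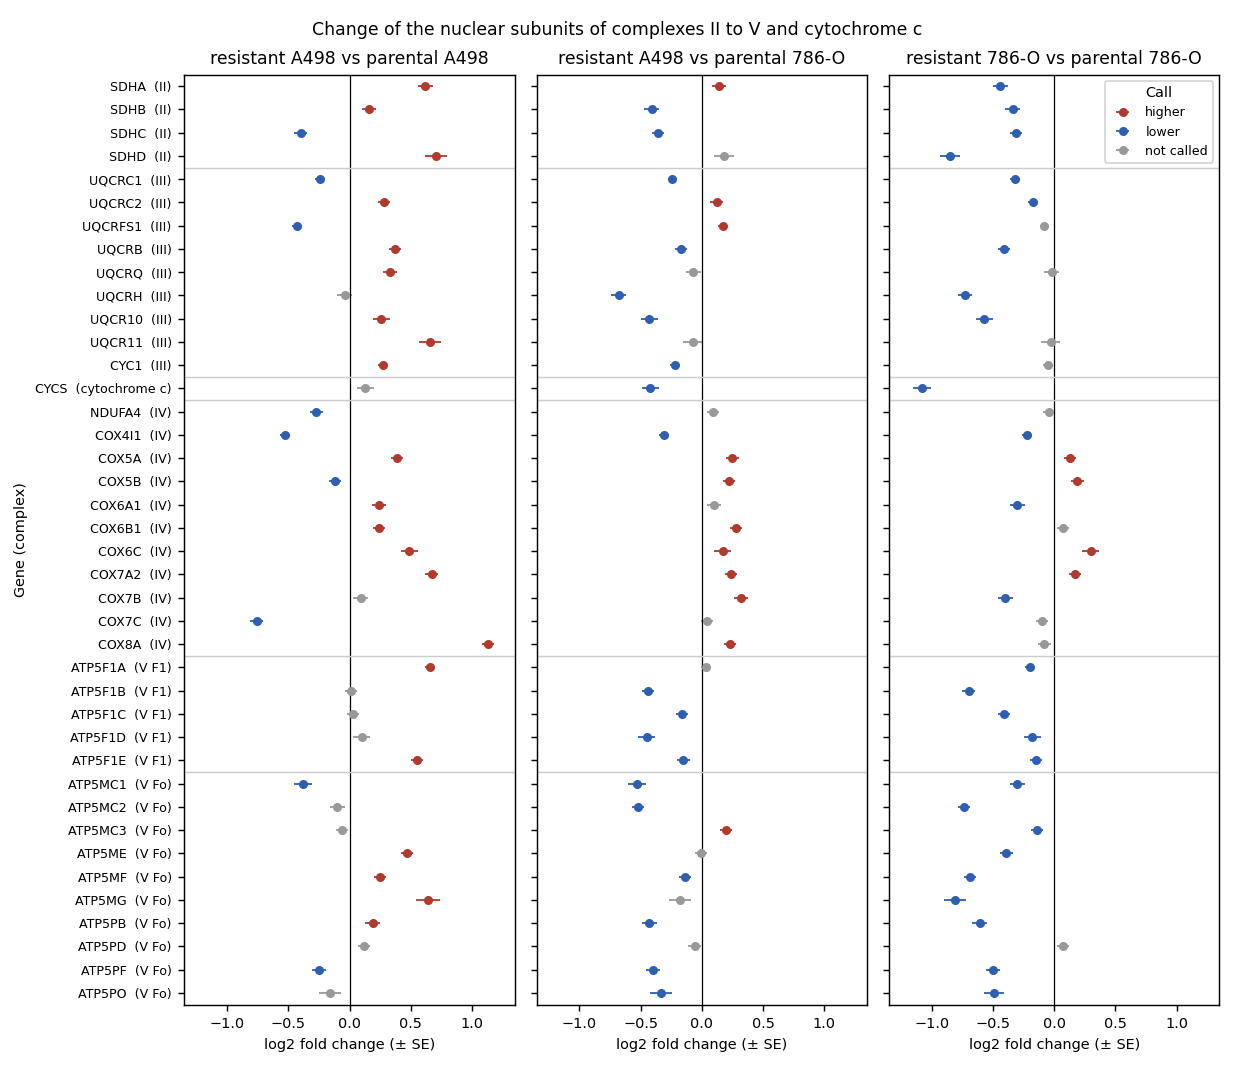
Log2 fold change with standard error (horizontal axis) of the 40 tested subunits (rows, by complex) in resistant against parental A498, resistant A498 against parental 786-O and resistant against parental 786-O, coloured by the call at an adjusted p of 0.05. In the panel of resistant against parental 786-O the 4 genes of complex II and 14 of 15 genes of complex V lie left of 0 and are called lower, while complex IV lies on both sides.

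**Figure D2:**
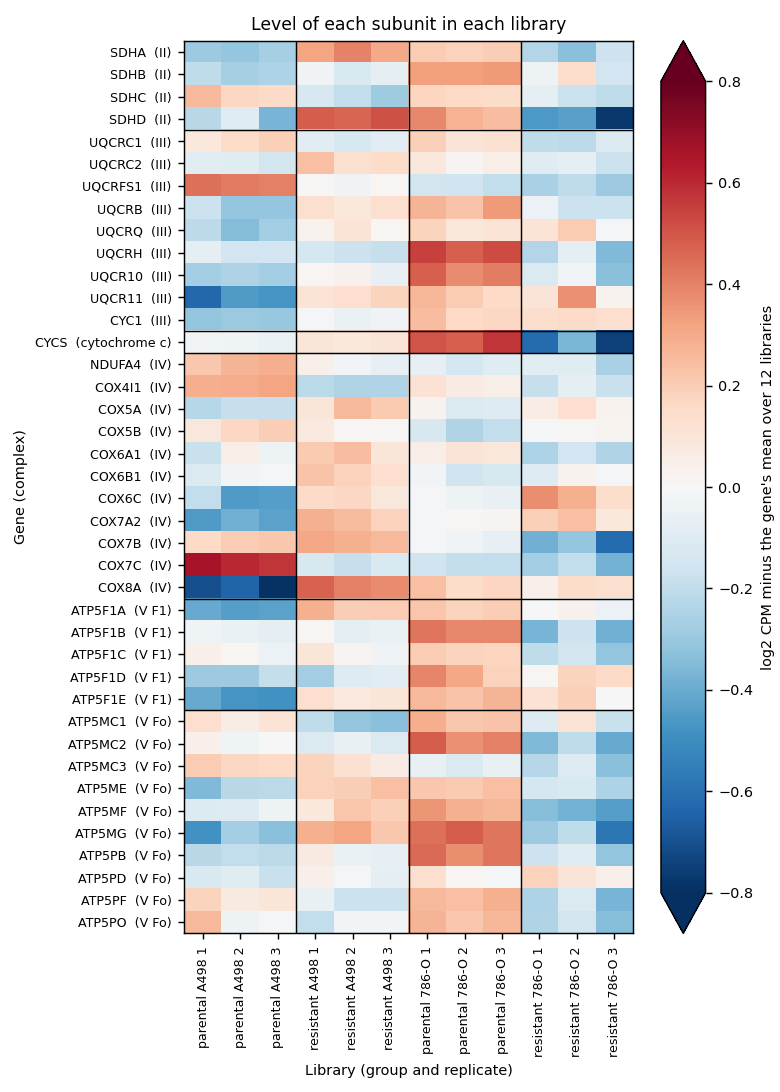
Log2 CPM of each tested subunit (rows) in each of the 12 libraries (columns) minus the mean of the gene over all libraries, with colours capped at 0.8 in either direction. The 3 libraries of a group look alike, and the parental 786-O columns are above the resistant 786-O columns for most genes of complexes II and V, whereas COX7C and COX8A separate parental A498 from the other 3 groups.

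Summed over all members, the level was 5119 CPM ± 31.7 (SD, n = 3) in parental A498, 5447 ± 104 in resistant A498, 6131 ± 124 in parental 786-O and 4907 ± 244 in resistant 786-O. The 3 libraries of resistant 786-O, at 4675 to 5162, lay below the 3 of parental 786-O, at 6026 to 6268. CPM are shares of a library, so that fewer cells with such RNA and less of it per cell cannot be told apart. The sums were not tested, since a few abundant genes make up much of them. Among these was ATP5F1B, the catalytic β subunit of ATP synthase, with the highest level per kilobase of exon of all members, at 266 to 433 CPM per kilobase over the 4 groups.

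**Figure D3:**
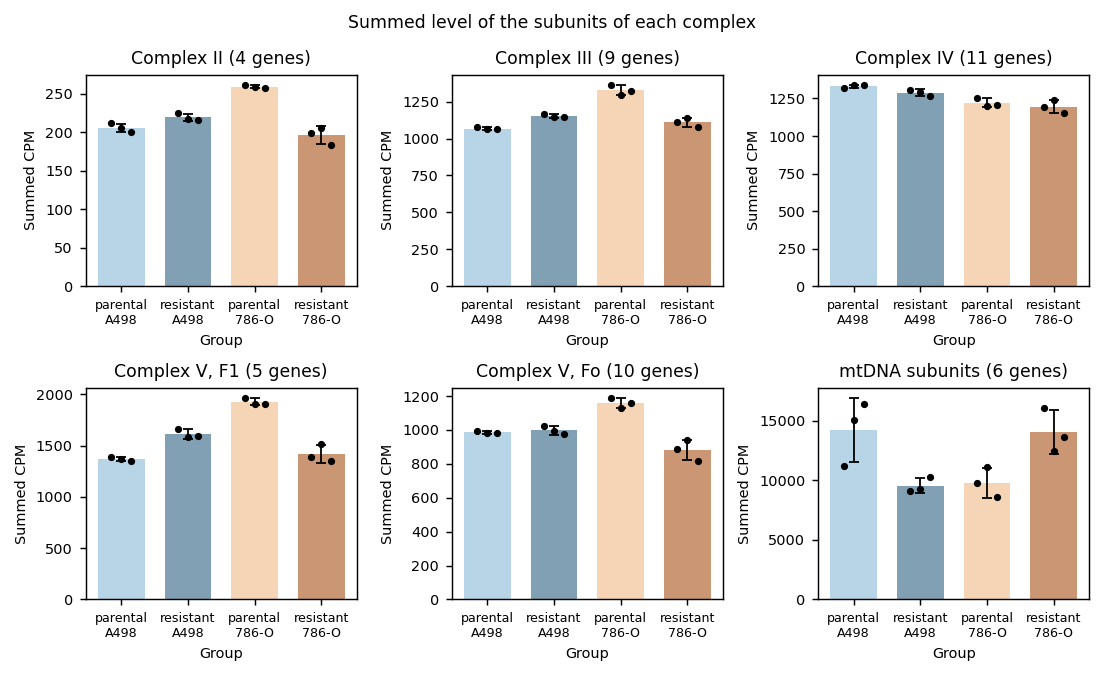
Summed CPM (vertical axis) of the nuclear subunits of each complex and of the 6 subunits encoded by mtDNA, for the 4 groups, with bars for the mean of 3 libraries, error bars for the SD and points for single libraries. The sums of complexes II, III and V were highest in parental 786-O, that of complex IV was highest in parental A498, and those of the mtDNA subunits were higher in parental A498 and resistant 786-O than in the other groups.

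Complex II was lower in resistant 786-O in all 4 subunits, beside 33.5% of all genes, with a median log2 fold change of -0.39 (range -0.85 to -0.31). This count was 4 of 4 also under library size alone and without resistant 786-O replicate 2. SDHD (chromosome 11, 112086824 to 112120016), which anchors the complex in the inner membrane, was at 38.8, 36.1 and 35.3 CPM in the 3 libraries of parental 786-O and at 21.6, 22.0 and 17.4 in resistant 786-O. It was at 25.5, 27.8 and 23.0 CPM in parental A498 and at 41.6, 41.0 and 42.3 in resistant A498. Both pairs of groups were separated without overlap, in opposite directions. SDHD was 1.81-fold lower in resistant than in parental 786-O (log2 fold change -0.85 ± 0.08 SE, edgeR adjusted p = 4e-07) and 1.64-fold higher in resistant than in parental A498 (0.71 ± 0.09, adjusted p = 2.8e-06). Against parental 786-O, resistant A498 differed by 0.18 ± 0.08, which was not called (adjusted p = 0.073).

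SDHA (chromosome 5, 218303 to 257082), the flavoprotein that oxidises succinate, had 16.5, 16.3 and 16.8 CPM in parental A498 and 25.2, 26.6 and 24.9 in resistant A498, and 23.3, 23.0 and 23.2 in parental 786-O and 17.2, 16.0 and 18.0 in resistant 786-O. Its highest group was resistant A498 and its lowest were parental A498 and resistant 786-O, which overlapped. SDHA was 1.54-fold higher in resistant than in parental A498 (0.62 ± 0.06, edgeR adjusted p = 2.8e-07), 1.36-fold lower in resistant than in parental 786-O (-0.44 ± 0.06, adjusted p = 9.5e-06) and higher by 0.14 ± 0.06 in resistant A498 than in parental 786-O (adjusted p = 0.049). The counts of SDHA are uncertain, since 3 pseudogenes together held 95.9% as many reads as SDHA itself and 21.7% of its exon bases are shared with another gene on the same strand. SDHB, which carries the iron-sulphur clusters, was higher by 0.16 in resistant than in parental A498 and lower by 0.34 in resistant than in parental 786-O on the log2 scale. SDHC, the other membrane anchor, was lower in both resistant groups, with log2 fold changes of -0.40 and -0.31.

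In complex III 5 of 9 subunits were lower in resistant than in parental 786-O, with a median of -0.17, and 0 were higher by edgeR, at an unadjusted p under 0.05 or by DESeq2, whereas 6 were higher and 2 lower in resistant than in parental A498, with a median of 0.27. Without resistant 786-O replicate 2, 7 were lower in resistant 786-O. With the length and GC trend removed the median in resistant A498 was 0.07, with 4 higher and 2 lower, where that of all genes was -0.10. By edgeR with TMM, 33.5% of all genes were called lower in resistant 786-O, and 36.3% higher and 36.4% lower in resistant A498. UQCRH (chromosome 1, 46303698 to 46316776), the hinge protein at the cytochrome c side of the complex, had 196, 187 and 193 CPM in parental 786-O and 114, 128 and 105 in resistant 786-O. In parental A498 it had 127, 121 and 121 CPM and in resistant A498 122, 119 and 118. The parental 786-O libraries were thus above all others and the other 3 groups lay together. UQCRH was 1.66-fold lower in resistant than in parental 786-O (-0.73 ± 0.06, edgeR adjusted p = 5e-08), lower by 0.68 ± 0.06 in resistant A498 than in parental 786-O (adjusted p = 1.3e-07), and at -0.04 ± 0.06 in resistant against parental A498 (adjusted p = 0.56), or at -0.19 and called lower with the length and GC trend removed. Its near-identical intronless copy UQCRHL moved by -0.54 ± 0.07 in resistant 786-O and by 0.29 ± 0.07 in resistant A498, and reads of the pair may be exchanged.

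UQCR11 (chromosome 19, 1597169 to 1605473), a small membrane subunit, was at 13.2, 14.9 and 14.7 CPM in parental A498 and at 22.0, 22.3 and 23.0 in resistant A498. It was at 24.5, 23.4 and 22.7 CPM in parental 786-O and at 21.9, 26.2 and 20.8 in resistant 786-O, so that parental A498 alone stood apart. The difference was 1.58-fold between resistant and parental A498 (0.66 ± 0.09, edgeR adjusted p = 6.6e-06), while resistant 786-O was at -0.03 ± 0.08 against parental 786-O (adjusted p = 0.72), or at -0.14 and called lower without resistant 786-O replicate 2. UQCRFS1 (chromosome 19, 29205320 to 29213151), the Rieske iron-sulphur protein, went the other way, with 115, 113 and 112 CPM in parental A498, 85.1, 83.1 and 85.6 in resistant A498, 76.5, 75.8 and 74.0 in parental 786-O and 70.9, 73.5 and 69.2 in resistant 786-O. Parental A498 was again the group that stood apart, here as the highest. UQCRFS1 was lower by 0.43 in resistant than in parental A498 and higher by 0.17 than in parental 786-O. In resistant 786-O it was at -0.08 against parental 786-O and not called, but called lower at -0.11 without resistant 786-O replicate 2 and higher at 0.14 with the length and GC trend removed.

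Among the other subunits of complex III, the core protein UQCRC1 was lower in both resistant groups, by 0.24 in resistant A498 and by 0.32 in resistant 786-O. The second core protein UQCRC2, the ubiquinone-binding UQCRB and the small subunit UQCR10 were higher in resistant A498, by 0.28, 0.37 and 0.26, and lower in resistant 786-O, at -0.17, -0.41 and -0.57. UQCRQ and CYC1, the cytochrome c1 heme protein, were higher in resistant than in parental A498, by 0.33 and 0.27, and not called in resistant 786-O, at -0.02 and -0.05.

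Cytochrome c showed the widest change of all members in resistant 786-O. CYCS (chromosome 7, 25118656 to 25125260) encodes the carrier between complexes III and IV, which on release into the cytosol also starts caspase activation. It had 232, 228 and 243 CPM in parental 786-O and 107, 127 and 97.7 in resistant 786-O, and 161, 160 and 158 in parental A498 and 175, 174 and 176 in resistant A498. The lowest parental 786-O library was well above the highest of every other group, and the resistant 786-O libraries were below all others. CYCS was 2.12-fold lower in resistant than in parental 786-O (-1.08 ± 0.07, edgeR adjusted p = 4.5e-09). In resistant A498 it was lower by 0.42 ± 0.07 than in parental 786-O (adjusted p = 9.8e-05) and at 0.13 ± 0.07 against parental A498 (adjusted p = 0.11), with no overlap of the libraries, a difference that was called with the pair fitted alone, at 0.13, under library size alone, at 0.20, and without a filter on low counts, at 0.17. It was at -0.11 with the length and GC trend removed and at -0.05 by the test of the study's methods, which uses raw counts, and not called in either. The table also held 20 pseudogenes of CYCS, whose reads came to 0.411% of those of the gene.

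**Figure D4:**
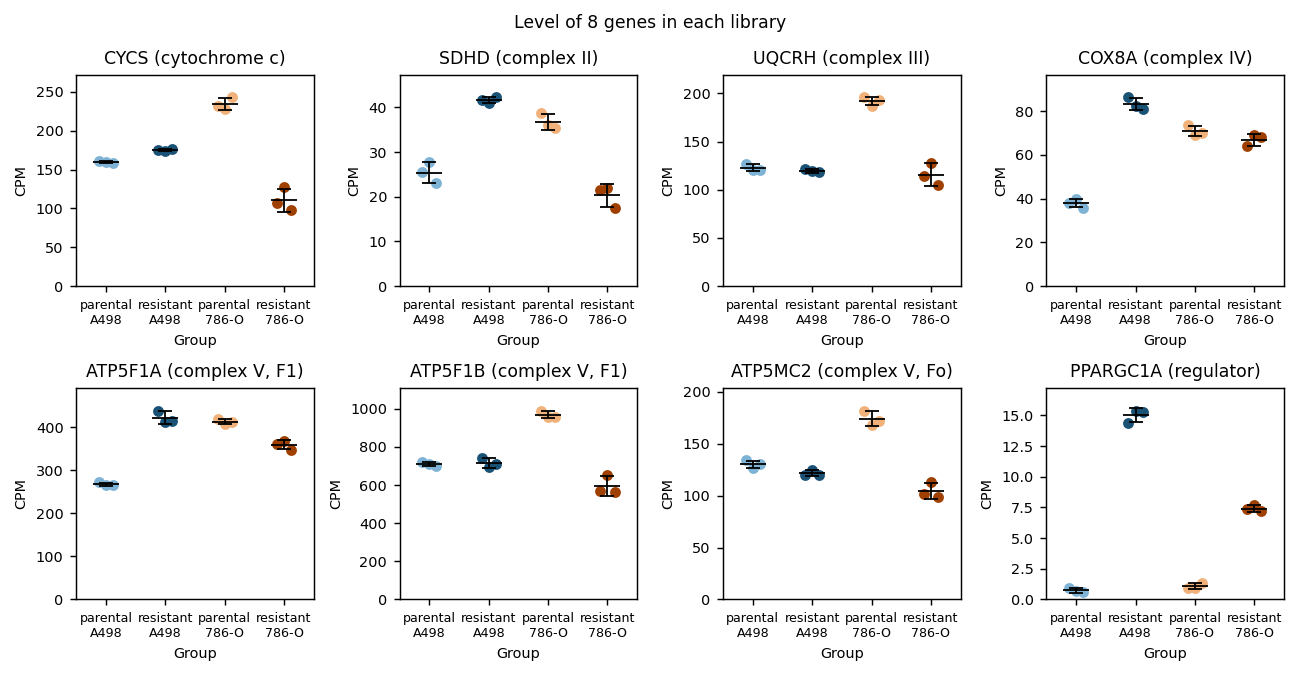
CPM (vertical axes, from 0) of CYCS, SDHD, UQCRH, COX8A, ATP5F1A, ATP5F1B, ATP5MC2 and the coactivator gene PPARGC1A in the 4 groups, with a point for each library, a bar for the mean and whiskers for the SD of 3 libraries. CYCS falls from 228 to 243 CPM in parental 786-O to 97.7 to 127 in resistant 786-O, COX8A is lower in parental A498 than in the other 3 groups, and PPARGC1A is at least 7.17 CPM in both resistant groups and at most 1.38 CPM in the parental ones.

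In complex IV 4 of the 11 subunits other than the tissue isoforms were higher in resistant 786-O, 3 lower and 4 not called, close to the shares of all genes (35.0% and 33.5%), with a median of -0.04 (range -0.40 to 0.30), which turned to 0.10 under library size alone and to 0.15 with the length and GC trend removed. In resistant A498 6 were higher and 4 lower than in parental A498 (36.3% and 36.4% of all genes), with a median of 0.24. Against parental 786-O 7 were higher and 1 lower in resistant A498 (31.6% and 32.1% of all genes), with a median of 0.22. Under library size alone 10 were higher and 1 lower in this last comparison. COX6C (chromosome 8, 99873200 to 99893707) had 92.7, 77.4 and 78.3 CPM in parental A498, 118, 119 and 113 in resistant A498, 105, 103 and 102 in parental 786-O and 137, 129 and 117 in resistant 786-O. Each resistant group was above its parental line without overlap. This small subunit was 1.41-fold higher in resistant than in parental A498 (0.49 ± 0.07, edgeR adjusted p = 1.3e-05) and 1.23-fold higher in resistant than in parental 786-O (0.30 ± 0.07, adjusted p = 0.0011), the latter at 0.52 with the length and GC trend removed. COX5A, a subunit on the matrix side, and COX7A2, the ubiquitous form of subunit VIIa, were also higher in both, by 0.39 and 0.67 in resistant A498 and by 0.13 and 0.17 in resistant 786-O, where the COX5A libraries of the pair overlapped.

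COX7B (chromosome X, 77899440 to 77907376), a further small subunit, was at 88.0, 86.9 and 84.9 CPM in parental 786-O and at 67.9, 71.6 and 57.8 in resistant 786-O. In parental A498 it was at 98.9, 102 and 103 CPM and in resistant A498 at 110, 108 and 106, so that the resistant 786-O libraries were the lowest and no pair of groups overlapped. COX7B was 1.32-fold lower in resistant than in parental 786-O (-0.40 ± 0.06, edgeR adjusted p = 5.2e-05) and higher by 0.32 ± 0.06 in resistant A498 than in parental 786-O (adjusted p = 0.00043), while resistant A498 was at 0.09 ± 0.06 against parental A498 (adjusted p = 0.21), a difference called under library size alone, at 0.16, and with the pair fitted alone, at 0.09, but at -0.08 and not called with the length and GC trend removed and at -0.09 on raw counts. The decrease in resistant 786-O was -0.25 under library size alone and -0.11 with the length and GC trend removed.

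The widest differences of complex IV set parental A498 apart from the other 3 groups. COX8A (chromosome 11, 63974620 to 63976543), the smallest subunit, had 38.2, 39.9 and 35.9 CPM in parental A498 and 86.4, 82.4 and 80.9 in resistant A498, with 73.5, 69.0 and 70.2 in parental 786-O and 63.9, 69.0 and 68.1 in resistant 786-O. Resistant and parental A498 did not overlap, and neither did resistant A498 and parental 786-O. COX8A was higher by 1.13 ± 0.05 on the log2 scale in resistant than in parental A498 (edgeR adjusted p = 6.8e-11) and 1.86-fold higher in parental 786-O than in parental A498 (0.90 ± 0.05, adjusted p = 7.1e-10). Against parental 786-O it was higher by 0.23 ± 0.05 in resistant A498 (adjusted p = 0.0013) and at -0.08 ± 0.05 in resistant 786-O (adjusted p = 0.18), or lower at -0.11 without resistant 786-O replicate 2 and at -0.24 with the length and GC trend removed. Another gene on the same strand shares 35.4% of the exon bases of COX8A in the annotation.

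COX7C (chromosome 5, 86617928 to 86620962), also a small subunit, showed the reverse, with 138, 133 and 130 CPM in parental A498, 79.9, 76.9 and 80.3 in resistant A498, 78.2, 76.7 and 76.5 in parental 786-O and 72.4, 76.4 and 67.4 in resistant 786-O. No library outside parental A498 exceeded 80.3 CPM, and resistant A498 and parental 786-O overlapped. COX7C was 1.69-fold lower in resistant than in parental A498 (-0.76 ± 0.05, edgeR adjusted p = 2.8e-09), and parental 786-O was lower than parental A498 by a like amount (-0.80 ± 0.05, adjusted p = 1.2e-09). Resistant A498 was at 0.04 ± 0.05 against parental 786-O (adjusted p = 0.56), and resistant 786-O at -0.10 ± 0.05 (adjusted p = 0.096), called lower at -0.14 without resistant 786-O replicate 2 and higher at 0.23 with the length and GC trend removed. Of the remaining subunits COX4I1, the ubiquitous form of subunit IV, was lower in both resistant groups, by 0.53 in resistant A498 and by 0.22 in resistant 786-O. COX6A1 was higher in resistant A498, by 0.24, and lower in resistant 786-O, by 0.30, with reads at 4 pseudogenes that came to 18.0% of its own. COX5B was lower in resistant A498, by 0.12, and higher in resistant 786-O, by 0.19. COX6B1 was higher in resistant A498, by 0.24, and NDUFA4 lower, by 0.27, and neither was called in resistant 786-O, at 0.07 and -0.04.

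The tissue isoforms of complex IV were at the limit of detection. COX4I2, a form of subunit IV known from lung and induced by hypoxia, had 0 counts in all 12 libraries, beside 19455 to 40007 counts of COX4I1 over the 3 libraries of a group. A count of 0 allows a level of up to 0.112 CPM in parental A498, 0.124 in resistant A498, 0.0744 in parental 786-O and 0.0652 in resistant 786-O, taken as 3 counts per library and for counting error alone. COX7A1, the form of heart and skeletal muscle, had 0 to 4 counts per library. Its share of the COX7A1 and COX7A2 level per kilobase was 0.369% ± 0.255 (SD, n = 3) in parental A498, 0.255% ± 0.222 in resistant A498, 0.246% ± 0.136 in parental 786-O and 0.203% ± 0.0636 in resistant 786-O, and the libraries of the 4 groups overlapped. Among other isoforms COX6A2 and COX7B2 had 0 counts and COX8C at most 1 per library. COX6B2, the testis form of subunit VIb, had 9 to 11 counts per library in parental A498, 3 to 5 in resistant A498, 0 in parental 786-O and 8 to 13 in resistant 786-O. Taking parental 786-O at 3 counts per library, the mean level of COX6B2 was 4.95 times as high in parental A498, 2.27 times in resistant A498 and 3.03 times in resistant 786-O. These ratios leave out the counting error of the means themselves, which rest on few counts.

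C15orf48, which encodes a paralog of NDUFA4 that can take its place in complex IV, was abundant by contrast. Its level was 12.4 to 13.1 CPM in parental A498, 35.0 to 40.8 in resistant A498, 63.4 to 68.5 in parental 786-O and 79.0 to 119 in resistant 786-O. It was higher in resistant than in parental A498 (1.59 ± 0.13, edgeR adjusted p = 3e-08), higher in resistant than in parental 786-O (0.52 ± 0.11, adjusted p = 0.00068) and lower in resistant A498 than in parental 786-O (-0.79 ± 0.12, adjusted p = 2.7e-05). NDUFA4L2, the paralog known as a target of hypoxia-inducible factors, had 9 to 33 counts per library and was not called in the comparisons of resistant A498 with parental A498, resistant 786-O with parental 786-O or resistant A498 with parental 786-O. COX7A2L, a relative of COX7A2 that joins complexes III and IV into supercomplexes, was lower by 0.72 in resistant than in parental 786-O and by 0.31 in resistant than in parental A498.

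Complex V was lower in resistant 786-O in 14 of 15 subunits, beside 33.5% of all genes, with a median of -0.41, and DESeq2 called 12 subunits lower. By edgeR 0 were higher, also at an unadjusted p under 0.05 and by DESeq2. The decrease spanned all 5 genes of F1 (median -0.20) and 9 of 10 of Fo and the stalk (median -0.50), and ATP5PD, the d subunit of the stalk, was the exception at 0.07 ± 0.05. Under library size alone 10 were lower and 1 higher, and with the length and GC trend removed 12 were lower and 2 higher. In resistant A498 6 were higher, 2 lower and 7 not called against parental A498, beside 36.3% and 36.4% of all genes, with a median of 0.10. The median was -0.02 with the length and GC trend removed, beside -0.10 over all genes. Against parental 786-O, 10 subunits were lower and 1 higher in resistant A498, with a median of -0.18, or 6 and 3 under library size alone. Of all genes, 32.1% were lower and 31.6% higher in that comparison with TMM.

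ATP5F1A (chromosome 18, 46080248 to 46104334), the α subunit of F1, was at 272, 265 and 267 CPM in parental A498 and at 439, 413 and 415 in resistant A498. It was at 419, 408 and 412 CPM in parental 786-O and at 361, 369 and 348 in resistant 786-O. Resistant A498 overlapped parental 786-O, and parental A498 was well below the other groups. ATP5F1A was 1.58-fold higher in resistant than in parental A498 (0.66 ± 0.04, edgeR adjusted p = 1.5e-09, 0.39 with the length and GC trend removed), at 0.03 ± 0.04 in resistant A498 against parental 786-O (adjusted p = 0.5) and lower in resistant than in parental 786-O (-0.20 ± 0.04, adjusted p = 0.00053), where scaling by library size alone gave -0.06 and no call. ATP5F1B (chromosome 12, 56638175 to 56645984), the β subunit, differed from this pattern. It had 719, 709 and 700 CPM in parental A498, 744, 696 and 708 in resistant A498, 991, 959 and 958 in parental 786-O and 568, 655 and 564 in resistant 786-O. Here parental and resistant A498 overlapped, parental 786-O was above and resistant 786-O below them. The log2 fold change was -0.70 ± 0.05 in resistant 786-O (edgeR adjusted p = 2.7e-08), -0.44 ± 0.05 in resistant A498 against parental 786-O (adjusted p = 4.7e-06) and 0.01 ± 0.05 in resistant against parental A498 (adjusted p = 0.83). ATP5F1B is named for its abundance, after its values were seen.

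Of the other F1 genes, ATP5F1C, ATP5F1D and ATP5F1E, for the γ, δ and ε subunits, were lower in resistant 786-O by 0.41, 0.18 and 0.15. In resistant A498 ATP5F1E was higher than in parental A498 by 0.55, and ATP5F1C and ATP5F1D were not called, at 0.03 and 0.10.

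In Fo, ATP5MC2 (chromosome 12, 53632726 to 53677408) is one of several genes that encode the same mature c subunit of the rotor ring. It was at 182, 168 and 172 CPM in parental 786-O and at 102, 113 and 98.3 in resistant 786-O, with 134, 127 and 130 in parental A498 and 120, 125 and 120 in resistant A498. The parental 786-O libraries were the highest and those of resistant 786-O the lowest. ATP5MC2 was 1.67-fold lower in resistant than in parental 786-O (-0.74 ± 0.05, edgeR adjusted p = 1.6e-08), lower by 0.52 ± 0.05 in resistant A498 than in parental 786-O (adjusted p = 8.3e-07) and at -0.10 ± 0.06 in resistant against parental A498 (adjusted p = 0.1), where it was called at -0.11 with the pair fitted alone and at -0.13 with at least 10 counts in every library. Of the other c subunit genes, ATP5MC1 was lower by 0.30 in resistant 786-O and by 0.38 in resistant A498, and ATP5MC3 was lower by 0.14 in resistant 786-O, with overlapping libraries, and at -0.06 in resistant A498.

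ATP5MG (chromosome 11, 118401346 to 118433278), the g subunit at the dimer interface, had 8.57, 9.95 and 9.49 CPM in parental A498, 14.6, 14.9 and 13.9 in resistant A498, 16.3, 16.8 and 16.1 in parental 786-O and 9.78, 10.4 and 8.03 in resistant 786-O. The resistant A498 and parental 786-O libraries were high and those of parental A498 and resistant 786-O low, with no overlap in between. It was 1.56-fold higher in resistant than in parental A498 (0.64 ± 0.10, edgeR adjusted p = 2.5e-05, 0.37 with the length and GC trend removed), 1.75-fold lower in resistant than in parental 786-O (-0.81 ± 0.09, adjusted p = 1.3e-06), and not called in resistant A498 against parental 786-O (-0.18 ± 0.09, adjusted p = 0.091). ATP5ME and ATP5MF, the e and f subunits, and ATP5PB, the b subunit of the stalk, likewise were higher in resistant than in parental A498, by 0.47, 0.25 and 0.19, and lower in resistant than in parental 786-O, by 0.39, 0.69 and 0.61. ATP5PF, coupling factor 6, was lower in both, by 0.25 and 0.50. ATP5PO, the oligomycin sensitivity protein, was lower in resistant 786-O by 0.49 and at -0.16 and not called in resistant A498.

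Set beside each other, the changes in the resistant A498 and resistant 786-O pairs differed in 33 of 40 members by the test of the difference itself, which called 68.3% of all genes. In 28 of these the change was more positive in resistant A498 and in 5 more negative, a split that was not counted over all genes. The median difference was 0.47 over the members and -0.02 over all genes. Members that were higher in resistant A498 and lower in resistant 786-O numbered 13, a combination that held for 11.1% of all genes. They were SDHA, SDHB and SDHD of complex II, UQCRC2, UQCRB and UQCR10 of complex III, COX6A1 of complex IV, and ATP5F1A, ATP5F1E, ATP5ME, ATP5MF, ATP5MG and ATP5PB of complex V. All of these but COX6A1 were also called higher in parental 786-O than in parental A498, and selection and a difference between the lines cannot be told apart here. Those higher in both were COX5A, COX6C and COX7A2, and those lower in both were SDHC, UQCRC1, COX4I1, ATP5MC1 and ATP5PF. The shares of all genes with these combinations were not counted. In level the resistant groups lay close, with a median absolute log2 ratio of 0.19 over the tested members. Against parental 786-O this ratio was 0.22 for resistant A498 and 0.30 for resistant 786-O. It was 0.27 between resistant and parental A498 and 0.42 between the parental lines.

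The subunits of the same complexes that are encoded by mtDNA were lower in resistant A498 and mostly higher in resistant 786-O. All 6 were lower in resistant than in parental A498, with a median of -0.59, and 4 were higher in resistant than in parental 786-O, with a median of 0.41, where 0 were lower by edgeR, at an unadjusted p under 0.05 or by DESeq2. Of all genes, 36.4% were lower in resistant A498 and 35.0% higher in resistant 786-O. MT-CO1, the catalytic core of complex IV, had 4030 to 5960 CPM in parental A498, 3330 to 3790 in resistant A498, 3090 to 4000 in parental 786-O and 5360 to 6540 in resistant 786-O, with log2 fold changes of -0.54 ± 0.12 (edgeR adjusted p = 0.0011) and 0.71 ± 0.12 (adjusted p = 0.00012). MT-CYB, the cytochrome b of complex III, moved by -1.08 ± 0.16 and 0.49 ± 0.16, and MT-CO2 by -0.39 ± 0.11 and 0.70 ± 0.11. The MT-CYB libraries of parental 786-O, at 613 to 811 CPM, overlapped those of resistant 786-O, at 781 to 1230. So did those of MT-ATP8, called higher in resistant 786-O by 0.34, at 195 to 257 and 239 to 338 CPM. MT-CO3 and MT-ATP6 were lower in resistant A498, by 0.67 and 0.64, and not called in resistant 786-O, at 0.20 and 0.07. Against parental 786-O, 1 of the 6 was higher in resistant A498 and 5 were not called. Without correction for gene length, the summed CPM of the 3 mtDNA subunits of complex IV was 8.46 ± 1.5 (SD, n = 3) times that of its 11 nuclear subunits in parental A498, 6.09 ± 0.47 times in resistant A498, 6.33 ± 0.84 times in parental 786-O and 9.70 ± 1.3 times in resistant 786-O. The parental A498 libraries, at 6.79 to 9.72, overlapped those of parental 786-O, at 5.61 to 7.25, while those of resistant 786-O, at no less than 8.42, did not. Libraries were made from polyadenylated RNA, and the part of RNA capture in the mtDNA counts was not tested.

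Of 42 assembly factors and accessory proteins of complexes II to V, 16 were higher and 13 lower in resistant than in parental A498, and 7 higher and 22 lower in resistant than in parental 786-O, with medians of 0.06 and -0.18. The counts in resistant A498 were close to the 36.3% and 36.4% of all genes, and those in resistant 786-O stand beside 35.0% and 33.5%. The first median was -0.08 with the length and GC trend removed (-0.10 over all genes). The second was -0.04 under library size alone (0.18 over all genes), with 16 lower. SDHAF3, which helps to mature the iron-sulphur protein of complex II, was at 16.8 to 18.7 CPM in parental 786-O and 6.12 to 7.28 in resistant 786-O (-1.36 ± 0.09, edgeR adjusted p = 5.4e-09), while SDHAF1 was higher by 0.55. LYRM7 and BCS1L act in turn on the Rieske protein of complex III. LYRM7 was at 13.3 to 14.3 CPM in parental 786-O and 5.12 to 5.70 in resistant 786-O (-1.34 ± 0.09, adjusted p = 3.9e-09), and BCS1L was lower by 0.68. LYRM7 was higher in resistant than in parental A498, by 0.51. Among the cytochrome b factors of complex III, UQCC1 was lower by 0.37 in resistant 786-O, UQCC2 was lower by 0.47 in resistant A498 and UQCC3 higher there by 0.44.

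Among 25 factors of complex IV, HIGD1A, a hypoxia-inducible protein that binds the complex, was at no more than 18.8 CPM in parental A498, 36.8 to 37.6 in resistant A498, 40.6 to 43.9 in parental 786-O and 20.4 to 28.7 in resistant 786-O. It was higher in resistant than in parental A498 (1.19 ± 0.11, edgeR adjusted p = 1e-07) and lower in resistant than in parental 786-O (-0.80 ± 0.10, adjusted p = 4.4e-06). SURF1, which acts in the insertion of heme a, was at 22.1 to 22.9 CPM in parental 786-O and 42.4 to 43.8 in resistant 786-O (0.94 ± 0.05, adjusted p = 5.5e-10). COX20, a chaperone of the mtDNA subunit COX2, was higher by 0.86 and the copper factor COA6 lower by 0.84 in resistant than in parental A498, and COA7 was lower by 0.78 in resistant 786-O. Of the proteins around complex V, ATP5IF1, the inhibitor of ATP hydrolysis, and ATPAF1, an assembly factor of F1, were higher in resistant A498 by 0.63 and 0.62. The small accessory subunits ATP5MK and ATP5MJ were lower in resistant 786-O by 0.55 and 0.52. ATPAF2, the other F1 factor, moved by -0.36 in resistant A498 and 0.31 in resistant 786-O.

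Nuclear genes of complex I, the other entry point of electrons, were lower in 22 and higher in 4 of 36 tested in resistant 786-O, with a median of -0.17, and higher in 17 and lower in 14 in resistant than in parental A498, with a median of 0.12. Of all genes, 33.5% were lower and 35.0% higher in resistant 786-O, and 36.3% higher and 36.4% lower in resistant A498. Under library size alone 13 genes of complex I were lower in resistant 786-O, with a median of -0.03 (0.18 over all genes). With the length and GC trend removed their median in resistant A498 was -0.05 (-0.10 over all genes). NDUFC2 was at 9.57 to 10.4 CPM in parental 786-O and 4.28 to 5.07 in resistant 786-O (-1.08 ± 0.10, edgeR adjusted p = 2e-07) and at 4.49 to 5.15 in parental A498 and 9.70 to 12.1 in resistant A498 (1.15 ± 0.11, adjusted p = 1.4e-07). NDUFA5 and NDUFA9 were lower in resistant 786-O by 0.82 and 0.58, and NDUFA3 and NDUFV3 lower in resistant than in parental A498 by 1.06 and 1.03.

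Regulators of these genes, a list of 14, were lower in 9 and higher in 3 in resistant 786-O, with a median of -0.32, and higher in 5 and lower in 4 in resistant than in parental A498, with a median of 0.05. This last median was -0.10 with the length and GC trend removed, as was that of all genes. The counts in resistant A498 were again close to the shares of all genes, 36.3% and 36.4%, and those in resistant 786-O stand beside 33.5% and 35.0%. PPARGC1A was higher in both. Its level was 0.589 to 0.955 CPM in parental A498, 14.4 to 15.4 in resistant A498, 0.957 to 1.38 in parental 786-O and 7.17 to 7.67 in resistant 786-O, so that both resistant groups were above both parental lines. The log2 fold change was 4.31 ± 0.16 in resistant against parental A498 (edgeR adjusted p = 2.5e-12), 3.75 ± 0.14 in resistant A498 against parental 786-O (adjusted p = 9.4e-12) and 2.73 ± 0.14 in resistant 786-O (adjusted p = 2.9e-10). PPARGC1B, the related coactivator PGC-1β, was higher by 1.13 in resistant 786-O and at -0.11 in resistant against parental A498. TFAM, which packages and transcribes mtDNA, was at 82.7 to 86.5 CPM in parental 786-O and 39.0 to 48.2 in resistant 786-O (-0.97 ± 0.06, adjusted p = 4.9e-09) and higher by 0.49 in resistant than in parental A498. TFB1M, which methylates mitochondrial ribosomal RNA, was higher by 0.75 in resistant than in parental A498. The factors whose motifs were counted above were, for NRF1, lower by 0.71 in resistant 786-O and by 0.21 in resistant A498, for GABPA, lower by 0.43 in resistant 786-O and at 0.09 in resistant A498, and for ESRRA, which encodes ERRα, higher by 0.23 in resistant 786-O and at 0.02 in resistant A498. These last 3 were chosen for their motifs, after their values were seen.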

How the data were processed

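mRNA libraries of the 4 groups, 3 replicate libraries each, were analysed from the gene table as deposited. The authors prepared the libraries with a stranded kit from polyadenylated RNA, demultiplexed with bcl2fastq 2.19.0, trimmed with Trimmomatic 0.36.6, aligned to GRCh38 with HISAT2 2.1.0 and counted reads of a mapping quality of at least 12 with featureCounts 1.6.3 over exons annotated in GENCODE 33, with strand taken into account. The values deposited by the authors are raw counts per gene and library, without normalization. Libraries were put in groups by their titles, and 0 columns were without a sample.

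The tests used edgeR 4.0.16, which loads limma 3.58.1, in R 4.3.3. Genes were filtered with filterByExpr, normalized by TMM and fitted with a quasi-likelihood model of 4 group means over 12 libraries, with a prior count of 0.125 for log2 fold changes. Benjamini-Hochberg adjustment covered all 19929 genes tested, and an adjusted p under 0.05 was called. An error after a CPM value is the SD of 3 libraries, and an error after a log2 fold change is its standard error. Total counts of 20042519 to 47972092 per library set the precision, and a count of 0 was taken to allow 3 counts per library. The code was tested on simulated data. Every comparison was repeated without TMM (library size alone), with DESeq2 1.42.0, without the filter on low counts, with a minimum of 10 counts in each library, with only its own groups in the model, with a block for the replicate number, after removing each library's trend with gene length and GC content, with single libraries left out, and with the test named in the study's methods, which was run on raw counts without adjustment. Python 3.11.15, pandas 2.3.3 and matplotlib 3.10.9 served for tables and plots.

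Gene positions and exons shared between genes come from GENCODE 44 on the same assembly, and promoters from RefSeq. The ranking of members by level and the share of COX7A1 are per kilobase of exon. Summed levels, the ratio of mtDNA to nuclear subunits, and the levels of COX4I2 and C15orf48 beside other genes are not corrected for length. Full values are given for CYCS, for COX4I2 and COX7A1, and for the 2 called members of each complex with the largest absolute log2 fold change in either resistant line against its parental line, while up to 3 genes of each further list, chosen likewise among those with a group mean of at least 5 CPM, are named with levels or with a log2 fold change alone. The remaining members are given by their log2 fold change. The members and the lists were chosen with earlier results of these data known. Reads that fit a gene and its pseudogenes could be assigned to either, or be left out by the limit on mapping quality. This bears on SDHA, UQCRH and COX6A1, and may bear on others of the 27 members with pseudogenes in the count table.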

Additional observations from a re-analysis of the deposited data

Results flagged for a closer look

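The change from the parental to the resistant group differed between A498 and 786-O in 33 of the 40 members tested, by the edgeR test of the difference itself, which called 68.3% of all genes. Values are the log2 fold change in A498 minus that in 786-O. Because the libraries of resistant A498 stand closer to 786-O than to parental A498, a difference between selection in the lines and a difference between the lines cannot be told apart here.

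In complex II the difference was 1.06 for SDHA, 0.51 for SDHB and 1.57 for SDHD, which was the widest of the members. In complex III it was 0.83 for UQCR10, 0.78 for UQCRB, 0.69 for both UQCRH and UQCR11, 0.45 for UQCRC2, 0.35 for UQCRQ and 0.32 for CYC1. The Rieske protein gene UQCRFS1 was the exception there, at -0.34. Cytochrome c, CYCS, differed by 1.21.

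Complex IV was divided. The difference was 1.21 for COX8A, 0.54 for COX6A1, 0.50 for COX7A2, 0.49 for COX7B and 0.25 for COX5A. It was -0.66 for COX7C, -0.31 for both COX4I1 and COX5B and -0.23 for NDUFA4.

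Complex V differed in the positive direction in the 12 subunits called. In F1 the values were 0.86 for ATP5F1A, 0.72 for ATP5F1B, 0.70 for ATP5F1E, 0.44 for ATP5F1C and 0.28 for ATP5F1D. In Fo and the stalk they were 1.44 for ATP5MG, 0.94 for ATP5MF, 0.86 for ATP5ME, 0.80 for ATP5PB, 0.63 for ATP5MC2, 0.33 for ATP5PO and 0.25 for ATP5PF.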

How the results depend on the processing

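Of 186 values of the summary results under alternatives, 162 kept their direction and their size or call. Of 364 values of the named members, 338 stayed on their side of the threshold, 11 lost the call and 15 gained one. Of the values called by edgeR with TMM on all libraries, 0 changed sign. UQCRFS1 and COX7C in resistant against parental 786-O were not called there. Both were called lower without resistant 786-O replicate 2 and higher with the length and GC trend removed. Of the lost calls, that of ATP5F1A in resistant 786-O was lost under library size alone and by the test of the study's methods, and the others by that test alone. Under library size alone, which raised the median of all genes by 0.15 in resistant against parental 786-O and in resistant A498 against parental 786-O, the member median was 0.25 in resistant against parental A498, -0.15 in 786-O (21 lower, 7 higher) and 0.31 between the parental lines. In resistant A498 against parental 786-O it turned to 0.05, with 17 higher and 12 lower. With the trend of length and GC content removed, the member median was 0.03 in resistant against parental A498, -0.01 in resistant A498 against parental 786-O and 0.20 between the parental lines (11 lower in 786-O), and 9 members were higher in resistant 786-O, among them UQCRFS1 at 0.14 and COX7C at 0.23, while COX8A was lower there at -0.24. That setting put the median of all genes at -0.10 in resistant against parental A498 and at -0.06 between the parental lines. With at least 10 counts in every library the median between the parental lines was 0.32. The test of the study's methods, on raw counts without adjustment or scaling for depth, gave 2 higher, 0 lower and a median of 0.00 in resistant against parental A498, 9 lower and a median of -0.11 in 786-O, 0 higher, 40 lower and -0.84 in resistant A498 against parental 786-O, and 0 lower and 0.94 between the parental lines. On raw counts the share of COX7A1 was 0.113% in parental A498, 0.0751% in parental 786-O and 0.0619% in resistant 786-O.

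With 1 library left out at a time, the member median was 0.17 to 0.23 in resistant against parental A498 and -0.30 to -0.24 in 786-O, where 24 to 31 members were lower and 3 to 5 higher, and the change differed between the lines in 32 to 36 members. Between libraries with the same replicate number, deviations from the group mean had correlations of -0.184 to 0.201, with 2 of 18 above 0.1. Libraries with different numbers were not compared, so that these values cannot decide whether the numbers pair the libraries. With the replicate number as a block, 22 members were higher and 9 lower in resistant against parental A498 (median 0.18), 3 and 27 in 786-O (-0.30), 11 and 19 in resistant A498 against parental 786-O (-0.10) and 28 and 7 between the parental lines (0.39), and the change differed in 34. Total counts limit COX4I2, COX7A1 and the other low isoforms.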
